A study of Mus musculus with 9 samples.

Results

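Diabetic skin ulcers of rats that were injected with platelet-rich plasma (PRP) were compared with diabetic skin ulcers injected with saline. The 2 groups were taken from the labels of the libraries and hold 6 of the 9 libraries of the series, 3 with PRP and 3 with saline. The comparison covered 15600 of 28370 gene features, those with at least 0.5 FPKM (fragments per kilobase of gene, scaled to the fragments of the library) in 3 or more of the 9 libraries. The other 3 libraries came from non-diabetic ulcers injected with saline, and they entered the estimate of the spread and are given beside the diabetic groups as a reference level.

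All samples were whole ulcer skin taken on day 21 and used as total RNA. PRP or an equal volume of saline, 0.5 ml, was injected at the wound on days 1, 7, 14 and 21, so the last injection day was also the sampling day. The wounds of every group were dressed with Vaseline gauze and a clean dressing. The labels number the samples of a group as biological replicates. The sources used here do not give strain, sex, age, the way diabetes was induced or the donor of the PRP. The study's design text speaks of rats, whereas the labels name mouse as the organism, and all 30560 identifiers of the deposited table are rat Ensembl identifiers. Rat gene names were therefore used as the table gives them.

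PRP is blood plasma with concentrated platelets. Platelets carry no nucleus, and their granules release growth factors such as platelet-derived growth factor (PDGF), transforming growth factor beta (TGF-beta) and vascular endothelial growth factor (VEGF) when they are activated. A closing skin wound passes from clotting through inflammation, with neutrophils and then macrophages, to a phase in which fibroblasts lay down collagen and keratinocytes cover the surface, and then to remodelling of the matrix. In diabetes this sequence is slowed, with prolonged inflammation and sparse granulation tissue. The study's title names fibroblasts and the effect of PRP on diabetic ulcers as its subject.

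The tissue label was checked against markers. Epidermal keratins were abundant in all 6 diabetic libraries, with Krt5 of basal keratinocytes at 1375, 2499 and 1492 FPKM in PRP replicates 1 to 3 and 1132, 1407 and 1439 FPKM in saline replicates 1 to 3. RNA of skeletal muscle, a layer that lies under rat skin, was abundant too. Total FPKM was 702718 to 728332 in PRP libraries and 574588 to 676150 in diabetic saline libraries, of which 50.7% to 55.4% with PRP and 41.2% to 45.6% with saline belonged to the 10 features of highest FPKM. A larger share of PRP libraries thus went to a few features, among them the signal recognition particle RNA Rn7sl1, at 92277, 98493 and 122986 FPKM against 52023, 66564 and 80218 FPKM. Read totals are not given in the tables used, and depth relative to the mean of the 9 libraries, from counts of 81 lncRNA genes, was 1.05 to 1.11 with PRP and 0.945 to 1.01 with saline. On the first principal component of the 6 diabetic libraries, which held 43.7% of the variance, PRP libraries lay at -0.25, 22.67 and 43.76 and saline libraries at 18.15, -60.84 and -23.49. The groups overlapped on it, and saline replicate 2 stood farthest from the others. The mean level of keratinocyte and hair follicle genes, on the log2(FPKM + 1) scale, was 5.87, 5.67 and 4.83 with PRP and 4.57, 6.67 and 6.38 with saline, and that of skeletal muscle genes was 7.37, 6.93 and 6.81 with PRP and 8.95, 7.98 and 7.03 with saline.

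No gene passed the test. Of 15600 features, 0 (0%) had a Benjamini-Hochberg adjusted p under 0.05 between PRP and saline in limma on log2(FPKM + 1). An unadjusted p under 0.05 was reached by 1021 features, or 6.54%, of which 621 were higher with PRP (3.98% of all tested) and 400 were lower (2.56%). In 904 features (5.79%) every PRP library was above every saline library, and in 866 (5.55%) every PRP library was below. With 3 libraries against 3 the smallest two-sided p of an exact permutation test is 0.1, so single genes could not pass by that test. Of all tested features 6395 were higher with PRP and 9205 lower, whatever their p, which is the base for the counts of direction below. The median change over all tested features was -0.06 and the median standard error (SE) 0.22, on the log2 scale. A difference of more than 1 on that scale was seen in 376 features with PRP above saline and in 181 with PRP below. In the same fit 1396 features (8.95%) had an adjusted p under 0.05 between diabetic saline and non-diabetic ulcers. Those calls do not show whether changes of the size seen between PRP and saline could be called. The number of features with an unadjusted p under 0.05 depended on single libraries. It was 592 without PRP replicate 2, 378 without PRP replicate 3, 2131 without saline replicate 1 and 522 without saline replicate 2, while no feature passed after adjustment in any of these fits. After adjustment 1 feature, a small nucleolar RNA, passed with libraries rescaled by size factors, and another 1 when low features were kept.

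Because no gene passed, the values below describe these 6 libraries. Changes are given as PRP minus saline on the log2(FPKM + 1) scale, which understates the change of genes with low FPKM. Unadjusted p-values come from the same limma fit, and the adjusted p was 0.188 for rno-mir-450a and 0.713 or more for every other gene given with values in the paragraphs that follow. The small nucleolar RNAs given at the end are not among these genes and carry their own adjusted p.

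**Figure D1:**
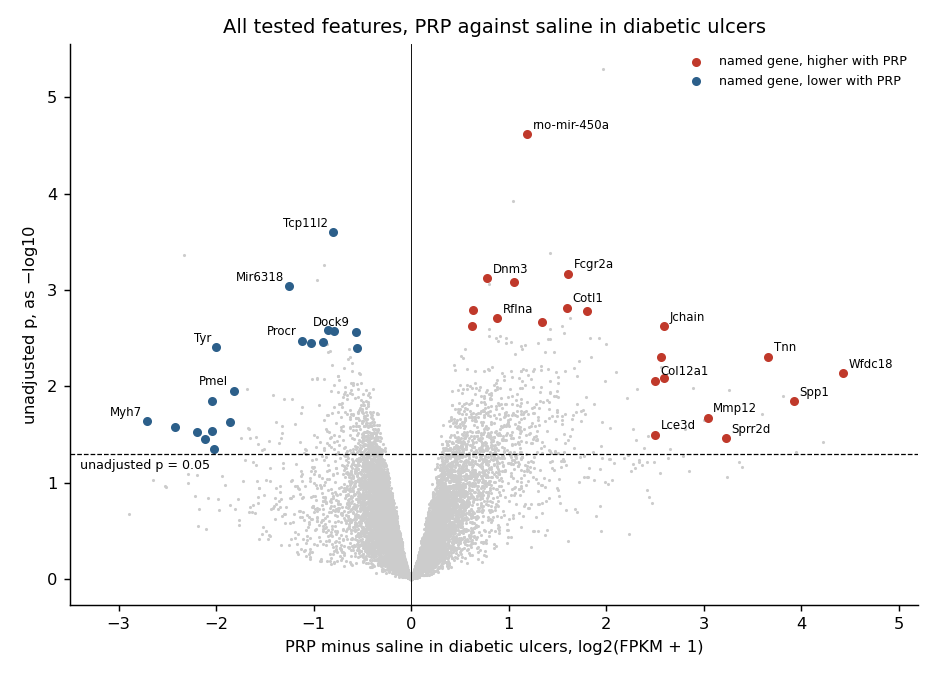
Change between PRP and saline in diabetic ulcers (x axis, difference of mean log2(FPKM + 1)) against the unadjusted p of limma (y axis, as minus log10) for 15600 tested features, grey. Red and blue points are the genes named by rule, higher and lower with PRP, and the dashed line marks an unadjusted p of 0.05, passed by 621 features on the right and 400 on the left.

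Among the 10 genes with the largest differences toward PRP, of those without overlap and with an unadjusted p under 0.05, were Wfdc18, Spp1, Tnn and Fbn2. Wfdc18, a gene of the whey acidic protein family, stood at 85.8, 425 and 94.6 FPKM in PRP replicates 1 to 3 and at 0.929, 17.3 and 9.05 FPKM in saline replicates 1 to 3 (log2 change 4.43, SE 1.27, unadjusted p = 0.00728). Spp1, which encodes osteopontin, a secreted protein of macrophages and matrix, stood at 447, 242 and 486 FPKM with PRP and 108, 4.95 and 22.5 FPKM with saline (log2 change 3.92, SE 1.28, unadjusted p = 0.0142). The groups did not overlap for either gene, and PRP replicate 2 was by far the highest for Wfdc18 and the lowest of its group for Spp1. Tnn, which encodes tenascin-N (also called tenascin-W), a matrix protein, stood at 43.6, 156 and 207 FPKM against 6.29, 2.44 and 27.7 FPKM (log2 change 3.66, SE 0.98, unadjusted p = 0.00493). Fbn2, a fibrillin of elastic microfibrils that is best known from development, stood at 13.4, 28.7 and 38.1 FPKM against 3.47, 0.531 and 10.1 FPKM (log2 change 2.59, SE 0.76, unadjusted p = 0.00809). In both matrix genes PRP replicate 1 was the lowest PRP library and saline replicate 3 the highest saline library, with a gap between them.

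Genes with smaller differences but little spread had the smallest p-values. Fcgr2a, an Fc receptor of myeloid cells that binds antibody complexes, stood at 69.8, 84.4 and 64.7 FPKM with PRP and 32.9, 17.1 and 21.7 FPKM with saline (log2 change 1.61, SE 0.31, unadjusted p = 0.00068). Cd300lf, a receptor of myeloid cells, stood at 2.16, 1.61 and 1.84 against 0.925, 0.133 and 0.213 FPKM (log2 change 1.05, SE 0.21, unadjusted p = 0.000825). Cotl1, an actin-binding protein, stood at 7.04, 14.02 and 17.1 against 2.57, 2.42 and 5.38 FPKM (log2 change 1.6, SE 0.35, unadjusted p = 0.00153). Each of these 3 genes was higher in every PRP library than in any saline library, and saline replicate 2 was the lowest library for all of them. Dnm3, a dynamin GTPase, was at 6.89, 7.11 and 8.26 against 3.92, 4.15 and 3.62 FPKM (log2 change 0.78, SE 0.15, unadjusted p = 0.00075), and Cdk16, a cyclin-dependent kinase, at 28.7, 25.8 and 28.8 against 16.3, 18.3 and 18.3 FPKM (log2 change 0.63, SE 0.14, unadjusted p = 0.00162). Plscr2, of the phospholipid scramblase family, stood at 12.1, 10.9 and 10.5 against 6.46, 2.77 and 2.92 FPKM (log2 change 1.34, SE 0.31, unadjusted p = 0.00215). Fzd2, a Wnt receptor, stood at 17.2, 18.04 and 22.3 against 12.4, 10.7 and 13.2 FPKM (log2 change 0.62, SE 0.15, unadjusted p = 0.00235). Rflna, at 1.31, 1.18 and 1.396 FPKM with PRP, was at 0.3796, 0.0909 and 0.294 FPKM with saline (log2 change 0.88, SE 0.20, unadjusted p = 0.00195), low in both groups but without overlap.

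Chosen the same way among the genes lower with PRP, Myh7, Myl2, Tnnt1, Myl3, Tyrp1, Dct, Myh2, Tyr, Myom3 and Pmel are described with their groups below. The smallest p toward lower values was that of Tcp11l2, at 14.04, 14.8 and 14.5 FPKM with PRP and 27.8, 27.2 and 23.1 FPKM with saline (log2 change -0.8, SE 0.13, unadjusted p = 0.000253). Its PRP libraries lay within 1 FPKM of each other and below every saline library. Procr, the endothelial protein C receptor, which helps to activate an anticoagulant protease, stood at 13.6, 6.597 and 7.46 against 17.98, 19.6 and 23.5 FPKM (log2 change -1.12, SE 0.28, unadjusted p = 0.00337). Osgin1, an oxidative stress response gene, stood at 2.37, 1.48 and 1.91 against 3.98, 5.17 and 3.67 FPKM (log2 change -0.85, SE 0.20, unadjusted p = 0.00257). Dock9, a guanine nucleotide exchange factor for the GTPase Cdc42, stood at 11.3, 10.1 and 10.01 against 16.8, 17.6 and 13.7 FPKM (log2 change -0.57, SE 0.14, unadjusted p = 0.0027). For these 3 genes each PRP library was below each saline library. Ciao1, a factor of cytosolic iron-sulphur protein assembly, was at 8.78, 8.81 and 8.34 against 12.7, 15.4 and 11.9 FPKM (log2 change -0.56, SE 0.14, unadjusted p = 0.00398), and Adh6, an alcohol dehydrogenase, at 2.11, 1.399 and 0.938 against 4.29, 4.06 and 3.61 FPKM (log2 change -1.03, SE 0.26, unadjusted p = 0.00354). Zfp708, a zinc finger gene, stood at 0.969, 1.59 and 1.82 against 3.05, 3.02 and 3.56 FPKM (log2 change -0.79, SE 0.19, unadjusted p = 0.00263).

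MicroRNA genes of 1 stretch of chromosome X were among the features with small p-values. The gene rno-mir-450a stood at 1.82, 1.77 and 1.60 FPKM with PRP and 0.315, 0.1399 and 0.131 FPKM with saline (log2 change 1.19, SE 0.15, unadjusted p = 2.41e-05, adjusted p = 0.188 in limma). Mir503-2, in the same stretch, stood at 1.72, 3.85 and 3.295 FPKM with PRP and 0.1797, 0 and 0.131 FPKM with saline (log2 change 1.8, SE 0.40, unadjusted p = 0.00164). Mir450b-2 stood at 0.628, 0.533 and 1.10 FPKM with PRP and was listed at 0 in all 3 saline libraries. Within 10000 bases of Mir503-2 lie 6 microRNA genes, a stretch chosen after these values had been seen, so how many of them did not overlap is a description. Mir351-2 stood without overlap at 0.769, 1.36 and 1.49 against 0, 0 and 0.573 FPKM, while Mir322-2, at 0.0503, 0.693 and 1.03 against 0.150, 0.299 and 0.176 FPKM, overlapped, and Mir542-2 was under the filter. Outside that stretch, Mir6318 on chromosome 19 was lower with PRP, at 0.4795, 0.527 and 0.276 against 2.37, 3.33 and 1.65 FPKM (log2 change -1.25, SE 0.25, unadjusted p = 0.000909). The 6 genes of the X-linked stretch are 69 to 95 bases long, and their FPKM is that of the gene in a total RNA library, not that of the mature microRNA.

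**Figure D2:**
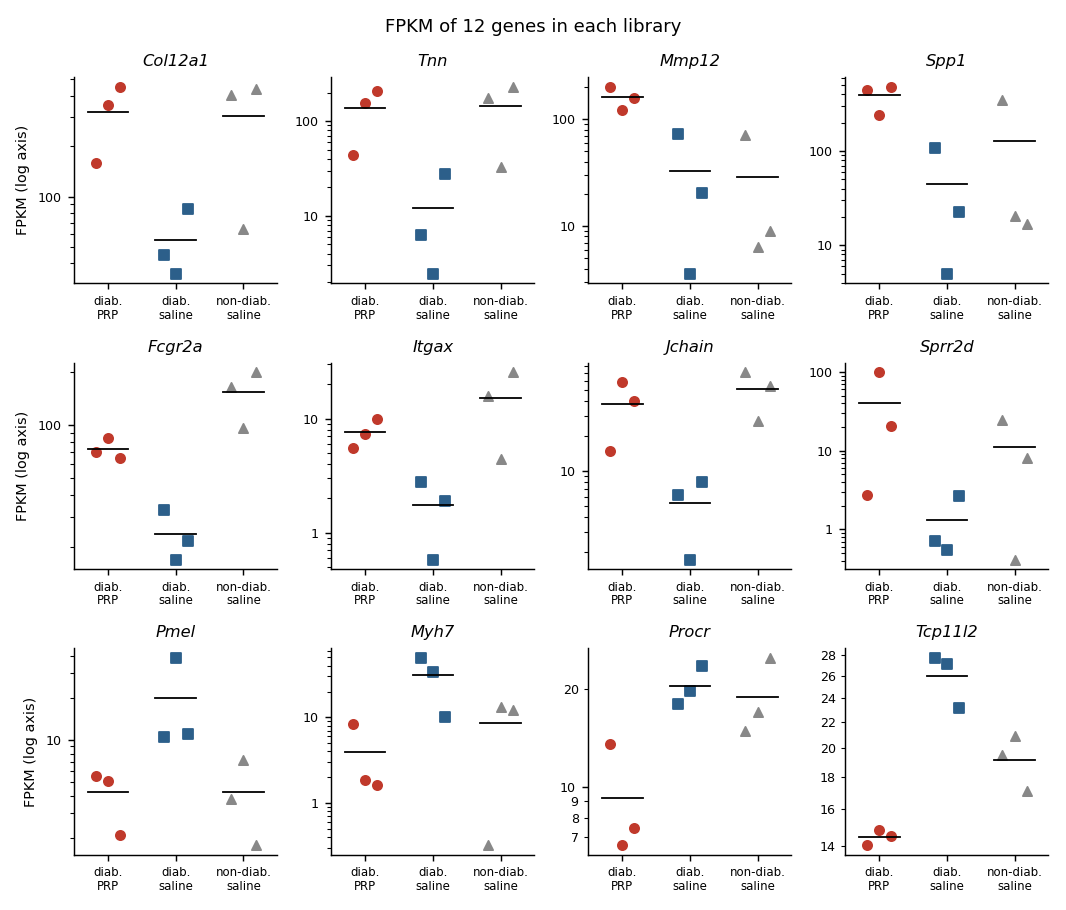
FPKM (y axis, log scale) of 12 genes in each of 9 libraries, 3 per group, with red circles for diabetic PRP, blue squares for diabetic saline and grey triangles for non-diabetic saline. Horizontal lines are group means, replicates 1 to 3 run from left to right, and for each gene the 3 red circles lie all above or all below the 3 blue squares.

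Collagens and the genes that assemble them were mostly higher with PRP. Of 25 genes of fibrillar collagen and matrix, all tested, 24 were higher and 1 was lower, with a median change of 1.07 against -0.06 for all tested features. An unadjusted p under 0.05 toward PRP was reached by 5 of the 25 (3.98% of all tested features), and 3 did not overlap between the groups (5.79% of all tested). In bulk tissue, fewer cells of a type and less RNA per cell cannot be told apart, here and in all groups below.

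Col12a1, a collagen that decorates the surface of collagen I fibrils, stood at 159, 353 and 454 FPKM with PRP and 45.2, 34.6 and 84.9 FPKM with saline (log2 change 2.5, SE 0.74, unadjusted p = 0.00872). Serpinh1, the collagen chaperone HSP47, stood at 400.4, 413 and 814 against 204, 82.1 and 375 FPKM (log2 change 1.47, SE 0.53, unadjusted p = 0.0226). Postn, which encodes periostin, a matrix protein of granulation tissue, stood at 859, 858 and 1502 against 656, 144 and 843 FPKM (log2 change 1.26, SE 0.61, unadjusted p = 0.0695). These 3 genes had no overlap between the groups. The abundant collagens did overlap. Col1a1, which encodes the main chain of collagen I, stood at 1533, 3230 and 4381 against 1199, 587 and 3435 FPKM (log2 change 1.05, SE 0.64, unadjusted p = 0.135), and Col3a1, the collagen of early granulation tissue, at 4449, 7042 and 11033 against 3890, 1172 and 6907 FPKM (log2 change 1.15, SE 0.67, unadjusted p = 0.121). Col1a2, the second chain of collagen I, stood at 1629, 3361 and 4608 against 1204, 586 and 3428 FPKM (log2 change 1.13, SE 0.64, unadjusted p = 0.113). In all 3, saline replicate 2 was the lowest library and saline replicate 3 lay within the PRP range. Col5a3, a chain of collagen V, stood at 17.3, 56.2 and 90.2 against 14.4, 7.17 and 19.2 FPKM (log2 change 1.74, SE 0.63, unadjusted p = 0.023), and Col5a1 and Col6a3 also had an unadjusted p under 0.05, with changes of 1.58 ± 0.65 and 1.29 ± 0.56 (± SE). Elastin (Eln, 0.01), tenascin-C (Tnc, 0.07) and the lysyl hydroxylase Plod2 (-0.03) had changes near 0 with wide spread among the libraries.

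The median of the matrix genes rested in part on saline replicate 2: it was 0.46 without that library and 0.73 to 1.43 without any other single diabetic library. With the epithelial or the muscle level of the libraries as a covariate it was 0.98 and 0.89. Over all 25 genes the summed FPKM was 12453, 20417 and 31035 with PRP and 10387, 3779 and 20156 with saline, so PRP replicate 1 lay below saline replicate 3.

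Fibroblast identity genes differed less. Of 21 tested, 17 were higher with PRP and 4 lower, with a median of 0.43. An unadjusted p under 0.05 was reached by 2 (3.98% of all tested features toward PRP), and none was without overlap (5.79%). The median was 0.11 without saline replicate 2, 0.25 without PRP replicate 3 and 0.77 without saline replicate 1. Sfrp2, a secreted Wnt modulator of dermal fibroblasts, stood at 6.73, 16.6 and 42.2 against 7.797, 3.02 and 3.95 FPKM (log2 change 1.69, SE 0.58, unadjusted p = 0.0182), and Thy1, a fibroblast surface protein, at 15.9, 25.9 and 43.1 against 12.6, 6.29 and 18.4 FPKM (log2 change 1.13, SE 0.43, unadjusted p = 0.029). In both the lowest PRP library lay within the saline range. The most abundant, Gsn (gelsolin), was at 821, 522 and 409.5 against 2431, 604 and 233 FPKM (log2 change -0.32, SE 0.75, unadjusted p = 0.679), and the abundant matrix-associated genes S100a4 (0.41 ± 0.39) and Dpt (0.64 ± 0.57) overlapped too. The PDGF receptor genes Pdgfra and Pdgfrb, which mark fibroblasts and pericytes, both had a change of 0.53 and overlapped.

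Small leucine-rich proteoglycans, which control fibril spacing, had a median of 0.38 over 8 tested genes, 0.01 without saline replicate 2. Lum (lumican) was the only one of them with an unadjusted p under 0.05 (3.98% of all tested features toward PRP), at 517, 768 and 1285 against 139, 43.4 and 684 FPKM (log2 change 2.3, SE 0.93, unadjusted p = 0.0361). Dcn (decorin), the most abundant, was at 1884, 1378 and 1941 against 2121, 570.1 and 1715 FPKM (log2 change 0.43, SE 0.47, unadjusted p = 0.391). Myofibroblast and smooth muscle genes had a median of 0.25 over 12, with values from 0.01 to 0.38 when single diabetic libraries were left out. Acta2, the smooth muscle actin that marks contractile myofibroblasts, stood at 63, 55.8 and 87.4 against 97.6, 49.9 and 48.98 FPKM (log2 change 0.12, SE 0.35, unadjusted p = 0.74). None of the 12 reached an unadjusted p of 0.05.

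Among 16 basement membrane genes, with a median of 0.20, 1 had an unadjusted p under 0.05 toward PRP (3.98% of all tested features). The groups did not overlap for 1 (5.79%), so both counts were near what all features gave. The gene in both counts was Col7a1. It encodes the anchoring fibril collagen that fixes the epidermis to the dermis, and it stood at 18.03, 37.4 and 44.2 FPKM with PRP and 13.1, 11.8 and 13.99 FPKM with saline (log2 change 1.2, SE 0.35, unadjusted p = 0.00755). Every PRP library was above every saline library. Collagen IV of vessel and epidermal basement membranes did not differ beyond its spread, with Col4a1 at 77.3, 93.6 and 128 against 83.7, 124 and 82.4 FPKM (log2 change 0.04, SE 0.28, unadjusted p = 0.891).

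Proteases and inhibitors that remodel the matrix were mostly higher with PRP. Of 21 tested genes, 18 were higher and 3 lower, the median was 0.65, 4 had an unadjusted p under 0.05 (3.98% of all tested features toward PRP) and 6 did not overlap (5.79%), all 6 with PRP above saline. Mmp12, the macrophage elastase, stood at 203, 122 and 159.6 FPKM with PRP and 73.6, 3.55 and 20.3 FPKM with saline (log2 change 3.04, SE 1.08, unadjusted p = 0.021). Adam12, a metalloprotease of activated mesenchymal cells, stood at 19.9, 50.8 and 64.4 against 5.56, 2.69 and 22.9 FPKM (log2 change 2.31, SE 0.71, unadjusted p = 0.0107), with PRP replicate 1 below saline replicate 3. Ctsb, a lysosomal cysteine protease, stood at 229.6, 276 and 291 against 219, 132 and 163 FPKM (log2 change 0.65, SE 0.23, unadjusted p = 0.0207), and the groups did not overlap. Ctsk, the collagen-degrading cathepsin, was at 241, 274 and 454 against 188, 33.8 and 237 FPKM (log2 change 1.42, SE 0.66, unadjusted p = 0.0608), and Mmp19 at 13.3, 14.9 and 25.7 against 13.1, 3.896 and 6.87 FPKM (log2 change 1.16, SE 0.40, unadjusted p = 0.0186). Timp1, an inhibitor of metalloproteinases, was at 53.4, 69.01 and 104 against 39.1, 24.5 and 36.3 FPKM (log2 change 1.13, SE 0.51, unadjusted p = 0.0559). These 3 also had no overlap, and Adam17, a sheddase, completes the 6 with a change of 0.37 ± 0.19. The collagenase Mmp13 (2.91, 11.97 and 14.9 against 0.502, 0.265 and 4.79 FPKM) and the gelatinase Mmp9 (3.29, 11.5 and 12.6 against 4.23, 0.397 and 1.04 FPKM), often raised in chronic wounds, overlapped. The abundant gelatinase Mmp2 was at 443, 532 and 736 against 436, 142 and 519 FPKM (log2 change 0.81, SE 0.46, unadjusted p = 0.114), and the membrane-anchored Mmp14 at 178, 294 and 413 against 206, 62.4 and 193 FPKM (log2 change 1.03, SE 0.47, unadjusted p = 0.0579). Without saline replicate 2 the median of the list was 0.40.

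**Figure D3:**
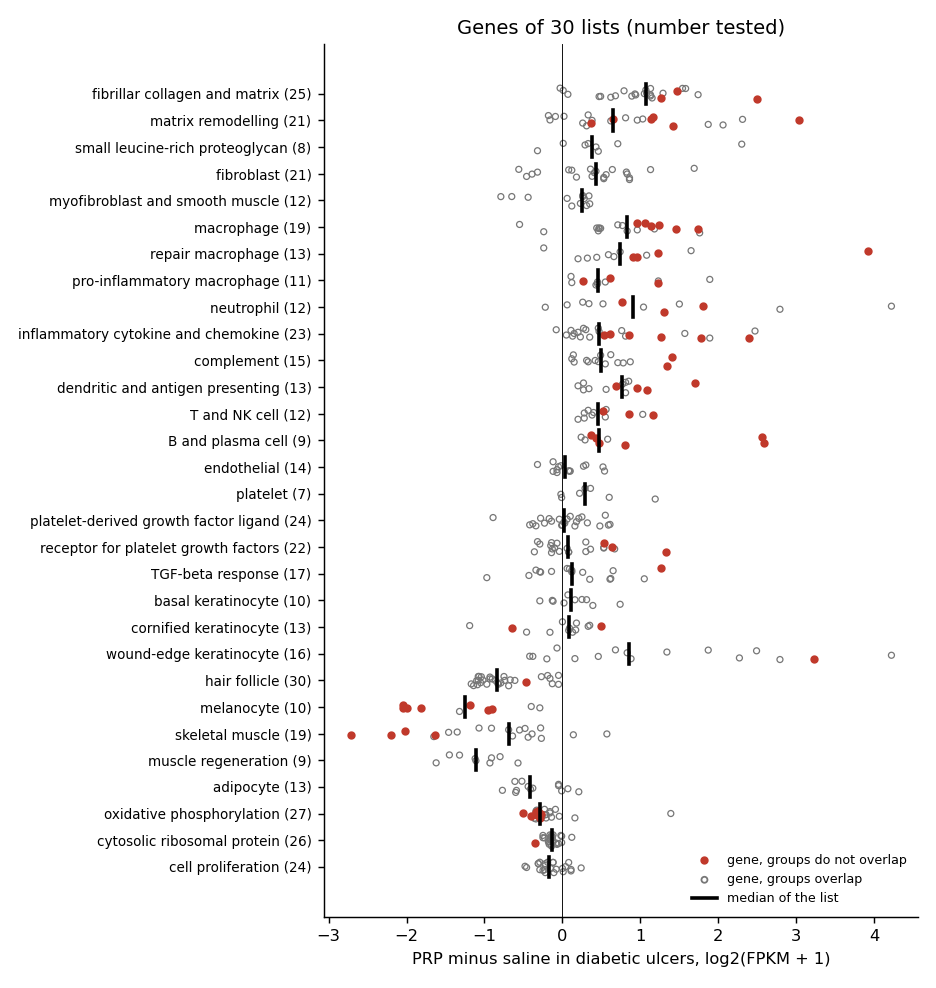
Change between PRP and saline (x axis, log2(FPKM + 1)) of every tested gene in 30 gene lists, 1 point per gene. Filled red points are genes whose 3 PRP and 3 saline libraries do not overlap, open points are the others and black bars are list medians, which run from -1.25 (melanocyte) to 1.07 (fibrillar collagen and matrix).

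Macrophage genes were higher with PRP. Of 19 macrophage genes, all tested, 17 were higher and 2 lower, with a median of 0.83, and 9 had an unadjusted p under 0.05 (3.98% of all tested features toward PRP), of which none was lower. In 6 of the 19 the groups did not overlap (5.79% of all tested features toward PRP). Fcgr1a, the high-affinity IgG receptor, stood at 26.6, 20.4 and 21.8 FPKM with PRP and 14.7, 5.598 and 11.3 FPKM with saline (log2 change 1.14, SE 0.34, unadjusted p = 0.00885). Tyrobp, the adaptor through which many myeloid receptors signal, stood at 159, 124 and 146 against 97.1, 23.3 and 58.5 FPKM (log2 change 1.46, SE 0.46, unadjusted p = 0.0126). Adgre1, the surface protein F4/80, stood at 67.2, 16.2 and 19.9 against 14.3, 2.97 and 9.92 FPKM (log2 change 1.74, SE 0.59, unadjusted p = 0.0178). None of these 3 overlapped, and saline replicate 2 was the lowest library for each. Lyz2, the lysozyme of macrophages and the most abundant gene of the list, stood at 1081, 414 and 857 against 479, 90.7 and 225 FPKM (log2 change 1.76, SE 0.60, unadjusted p = 0.0175), with PRP replicate 2 below saline replicate 1. Aif1, Lgmn and Laptm5 were the other genes without overlap, with changes of 1.24 ± 0.42, 0.96 ± 0.34 and 1.06 ± 0.37. The complement component C1qc, made by tissue macrophages, was at 221, 128 and 197 against 298, 66.3 and 101 FPKM (log2 change 0.49, SE 0.48, unadjusted p = 0.339), and Csf1r, the receptor for the macrophage growth factor, at 39.1, 32.7 and 46.5 against 58.5, 16.6 and 22.1 FPKM (log2 change 0.47, SE 0.40, unadjusted p = 0.271). In both, saline replicate 1 was the highest of the 6 libraries. The 2 lower genes were the scavenger receptor Cd163 (-0.24) and the Fc receptor chain Fcer1g (-0.55).

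The macrophage median was 1.34 without saline replicate 1 and 0.58 to 0.91 without any other single diabetic library. It was 0.74 with the epithelial level and 0.82 with the muscle level as a covariate. The mean level of the list per library was 5.73, 5.31 and 5.58 with PRP and 5.63, 3.98 and 4.59 with saline, so saline replicate 1 lay among the PRP libraries and the other saline libraries below them.

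Genes linked to tissue-repair macrophages showed the same order of size. Of 13 tested, 12 were higher with PRP, and the median was 0.74. An unadjusted p under 0.05 was reached by 4 (3.98% of all tested features toward PRP), and 4 did not overlap (5.79%). Besides Spp1, the genes with no overlap were Il10, an anti-inflammatory cytokine, at 1.45, 1.62 and 1.11 against 0.809, 0.0326 and 0.0913 FPKM (log2 change 0.91, SE 0.34, unadjusted p = 0.0278), and Stab1, a scavenger receptor, at 19.98, 20.2 and 20.3 against 19.2, 5.77 and 8.67 FPKM (log2 change 0.95, SE 0.35, unadjusted p = 0.0256). Arg1, the arginase of repair macrophages, was at 17.2, 54.5 and 15.1 against 11.3, 7.16 and 11.6 FPKM (log2 change 1.23, SE 0.56, unadjusted p = 0.0587) and also did not overlap. Trem2, a lipid receptor of tissue macrophages, stood at 34.5, 21.1 and 40.7 against 26.4, 3.11 and 8.37 FPKM (log2 change 1.65, SE 0.59, unadjusted p = 0.0219), with PRP replicate 2 below saline replicate 1. The median was 1.17 without saline replicate 1. Gpnmb, a lysosomal glycoprotein that is abundant in lipid-laden macrophages, was at 135, 74.9 and 98.6 against 86.9, 89.6 and 65.1 FPKM (log2 change 0.32, SE 0.25, unadjusted p = 0.239).

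Genes of pro-inflammatory macrophages had a median of 0.45 over 11 tested genes, all higher with PRP. Without overlap were 3 of them (5.79% of all tested features toward PRP), and 1 had an unadjusted p under 0.05 (3.98%). That gene was Tlr2, a receptor for bacterial lipoproteins, at 4.42, 4.88 and 4.59 against 2.98, 0.817 and 0.957 FPKM (log2 change 1.22, SE 0.47, unadjusted p = 0.0304). Cd80, a co-stimulatory ligand, and the cytokine gene Il6 also had no overlap. Il1b and Nos2 were high in PRP replicate 2 alone. Il1b, the cytokine interleukin-1 beta, stood at 4.75, 80.9 and 2.61 FPKM with PRP and 3.14, 1.28 and 2.57 FPKM with saline (log2 change 1.89, SE 1.42, unadjusted p = 0.219), and Nos2, the inducible nitric oxide synthase, at 0.0869, 14.7 and 0.278 against 0.386, 0.181 and 0.0231 FPKM (log2 change 1.23, SE 1.59, unadjusted p = 0.457). Without PRP replicate 2 the median of the list was 0.20, and with a pseudocount of 0.1 it was 0.88.

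Neutrophil genes followed PRP replicate 2 as well. Of 12 tested genes 11 were higher with PRP, with a median of 0.91, or 0.38 without PRP replicate 2. An unadjusted p under 0.05 was reached by 1 (3.98% of all tested features toward PRP), and 3 did not overlap (5.79%). The calprotectin genes, which neutrophils and activated keratinocytes share, were the most abundant. S100a8 stood at 153, 2448 and 339.8 FPKM with PRP and 71.4, 26.7 and 192 FPKM with saline (log2 change 2.79, SE 1.25, unadjusted p = 0.053), and S100a9 at 104, 3566 and 585 against 8.24, 24.1 and 146 FPKM (log2 change 4.22, SE 1.72, unadjusted p = 0.0378). In both genes PRP replicate 2 was several times the next library and PRP replicate 1 lay below saline replicate 3. Csf3r, the receptor for the granulocyte growth factor, was at 0.628, 4.03 and 0.623 against 0.524, 0.246 and 0.399 FPKM (log2 change 0.77, SE 0.92, unadjusted p = 0.423), and Trem1, a receptor that amplifies inflammation, at 0.715, 8.35 and 1.098 against 0.709, 0.227 and 0.0814 FPKM (log2 change 1.3, SE 0.86, unadjusted p = 0.166). These 2 genes and Clec4e were the ones without overlap, and in Csf3r and Trem1 the gap between PRP replicate 1 or 3 and saline replicate 1 was small. The defining granule genes Mpo, Elane and Ngp were at or under 0.238 FPKM in all 6 libraries. The summed FPKM of the 17 listed genes was 297, 6113 and 954 with PRP and 139, 70.3 and 377 with saline.

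Inflammatory cytokines and chemokines were higher with PRP in 22 of 23 tested genes, with a median of 0.47, 3 with an unadjusted p under 0.05 (3.98% of all tested features) and 6 without overlap (5.79%). Cxcl1, which attracts neutrophils, stood at 4.63, 13.6 and 9.48 against 2.18, 1.89 and 1.30 FPKM (log2 change 1.78, SE 0.62, unadjusted p = 0.0195). Ccl3, which attracts monocytes, stood at 8.72, 59.4 and 8.24 against 6.31, 0.734 and 1.99 FPKM (log2 change 2.39, SE 1.01, unadjusted p = 0.0439), and Ccl5, which attracts T cells and monocytes, at 1.45, 1.61 and 1.07 against 0.982, 0.161 and 0.928 FPKM (log2 change 0.53, SE 0.23, unadjusted p = 0.0495). The groups did not overlap for these 3 genes. Ccl2, a chemokine for monocytes, was at 55.8, 23.3 and 30.8 against 39.4, 5.24 and 5.72 FPKM (log2 change 1.57, SE 0.72, unadjusted p = 0.0587), with saline replicate 1 within the PRP range. Cxcl2, another neutrophil chemokine, stood at 2.82, 108 and 0.836 FPKM with PRP and 1.78, 0.489 and 0.0849 FPKM with saline (log2 change 2.47, SE 1.62, unadjusted p = 0.163), so that it was high in PRP replicate 2 and low in all 5 other diabetic libraries. Cxcl12, made by stromal cells and the most abundant of the list, was at 107, 74.6 and 78.9 against 133, 51.2 and 34.7 FPKM (log2 change 0.46, SE 0.43, unadjusted p = 0.308). Interleukin-6 (Il6) was at 0.189, 2.33 and 0.241 against 0.0556, 0.158 and 0.139 FPKM, without overlap but under 1 FPKM in 5 of the 6 libraries. Tumour necrosis factor (Tnf) was at 0.573, 1.19 and 0.666 against 0.959, 0.733 and 0.348 FPKM, and Il11 was listed at 0 in all 6. The chemokine genes Cxcl3 and Cxcl6 complete the 6 without overlap, with changes of 1.26 ± 1.18 and 0.85 ± 1.13. With a pseudocount of 0.1 the median of the list was 0.91.

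Genes of antigen presentation were higher with PRP in all 13 tested members of the dendritic list of 14 genes. Their median was 0.77, 4 had an unadjusted p under 0.05 (3.98% of all tested features) and 4 did not overlap (5.79%). Ciita, the regulator that turns on MHC class II genes, stood at 1.98, 3.07 and 3.15 FPKM with PRP and 1.45, 0.844 and 1.66 FPKM with saline (log2 change 0.69, SE 0.21, unadjusted p = 0.0108). Itgax, the integrin CD11c of dendritic cells and macrophages, stood at 5.55, 7.29 and 9.96 against 2.79, 0.5797 and 1.91 FPKM (log2 change 1.7, SE 0.56, unadjusted p = 0.0153). The rat MHC class II genes RT1-Ba and RT1-Bb stood at 54.1, 65.4 and 94.4 against 53.8, 16.7 and 48.8 FPKM (log2 change 0.95, SE 0.41, unadjusted p = 0.0481) and at 11.3, 17.1 and 21.8 against 10.4, 3.48 and 9.44 FPKM (log2 change 1.08, SE 0.37, unadjusted p = 0.0178). None of these 4 overlapped, although for RT1-Ba PRP replicate 1 and saline replicate 1 were nearly equal. Cd74, the class II invariant chain and the most abundant of the list, was at 154, 170.1 and 298 against 179, 53.3 and 161 FPKM (log2 change 0.77, SE 0.45, unadjusted p = 0.123), and Cd207 (langerin), which marks the Langerhans cells of the epidermis, at 10.6, 13.2 and 14.1 against 14.7, 6.35 and 11.2 FPKM (log2 change 0.27, SE 0.57, unadjusted p = 0.647). The median was 0.29 without saline replicate 2.

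Lymphocyte genes were higher with PRP in every tested member of both lists, and most of them were low. For all tested features the share with an unadjusted p under 0.05 toward PRP was 3.98% and the share without overlap 5.79%. All 12 tested T and NK cell genes of 18 listed were higher, with a median of 0.46 (0.26 without saline replicate 2), and 4 had an unadjusted p under 0.05. Cd8a and Cd8b, the co-receptor chains of cytotoxic T cells, stood at 1.43, 3.29 and 2.73 against 1.01, 0.121 and 0.536 FPKM (log2 change 1.16, SE 0.41, unadjusted p = 0.0214) and at 1.71, 1.695 and 2.10 against 0.666, 0.318 and 0.718 FPKM (log2 change 0.86, SE 0.27, unadjusted p = 0.0108). Neither overlapped, nor did Cd3d, a chain of the T cell receptor complex, with a change of 0.52 ± 0.22. All 9 tested B and plasma cell genes of 13 listed were higher too, with a median of 0.47, 4 with an unadjusted p under 0.05 and 6 without overlap. Jchain, which joins antibody units in IgM and IgA, stood at 14.8, 58.96 and 40.1 FPKM with PRP and 6.15, 1.72 and 8.09 FPKM with saline (log2 change 2.59, SE 0.61, unadjusted p = 0.00237). Ighm, the constant region of the IgM heavy chain, stood at 12.6, 68.2 and 49 against 7.66, 2.15 and 7.38 FPKM (log2 change 2.56, SE 0.68, unadjusted p = 0.00498). Mzb1, a chaperone of antibody secretion, stood at 0.3899, 1.496 and 0.945 against 0.181, 0.0462 and 0.03799 FPKM (log2 change 0.8, SE 0.25, unadjusted p = 0.012). In these 3 genes PRP replicate 2 was the highest and PRP replicate 1 the lowest PRP library. With a pseudocount of 0.1 the T and NK cell median was 0.96 and the B and plasma cell median 1.69.

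Complement genes were higher with PRP in all 15 tested members, with a median of 0.49 that moved from 0.21 without saline replicate 2 to 1.07 without saline replicate 1. C3, the central component, stood at 10.7, 4.32 and 3.797 against 2.46, 1.19 and 1.12 FPKM (log2 change 1.41, SE 0.48, unadjusted p = 0.0171) and Cfi, a protease that limits complement, at 1.47, 6.11 and 3.32 against 0.519, 0.861 and 0.661 FPKM (log2 change 1.34, SE 0.58, unadjusted p = 0.049). Of the 15 genes, only these 2 had an unadjusted p under 0.05 (3.98% of all tested features toward PRP) or no overlap (5.79%). C4b, by contrast, was at 60.6, 70.3 and 72.1 against 262, 65.3 and 13.4 FPKM (log2 change 0.12, SE 0.85, unadjusted p = 0.893), with the saline libraries on both sides of the PRP libraries.

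**Figure D4:**
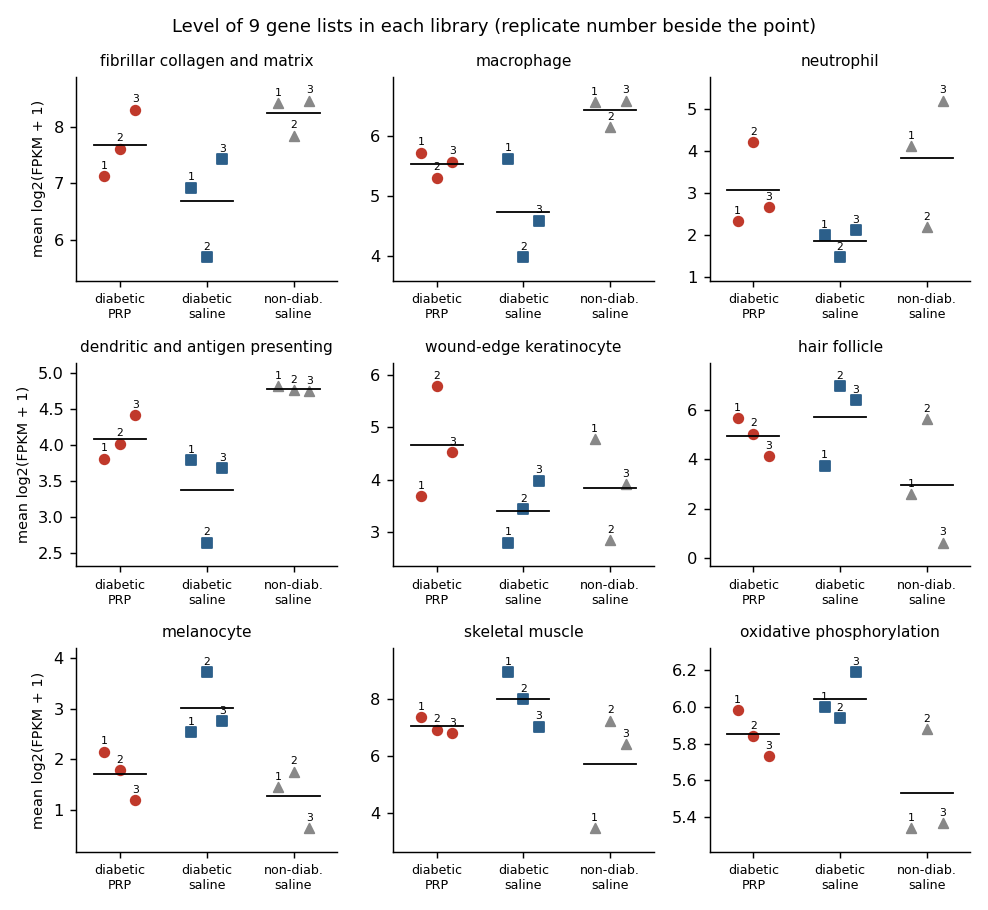
Level of 9 gene lists in each library (y axis, mean log2(FPKM + 1) over the tested genes of the list), with the replicate number beside each point and group means as lines. Of the 9 lists, neutrophil, dendritic and melanocyte have all PRP points on 1 side of all diabetic saline points, and saline replicate 2 is the lowest diabetic library for matrix, macrophage, neutrophil and dendritic genes.

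In the epidermis, wound-edge keratinocyte genes had a median of 0.86 over 16 tested, with 12 higher and 4 lower, 2 with an unadjusted p under 0.05 (3.98% of all tested features) and 1 without overlap (5.79%), so that the share without overlap was near that of all features. The gene without overlap was Sprr2d, a small proline-rich protein of the cornified envelope that is induced by stress, at 2.71, 99.8 and 20.3 FPKM with PRP and 0.714, 0.552 and 2.62 FPKM with saline (log2 change 3.23, SE 1.29, unadjusted p = 0.0343). Lce3d, a late cornified envelope gene outside the lists that is known from disturbed skin barrier, stood at 0.478, 30.2 and 4.66 against 0.0754, 0.124 and 0.191 FPKM (log2 change 2.5, SE 0.98, unadjusted p = 0.0317). Krt6a, the keratin of activated keratinocytes, stood at 235, 1527 and 626 against 36.7, 193 and 274 FPKM (log2 change 2.27, SE 1.06, unadjusted p = 0.063). In all 3 genes PRP replicate 2 was the highest library. Defb4, an antimicrobial beta-defensin, was at 0, 41.6 and 4.16 against 0, 0.0498 and 0.186 FPKM (log2 change 2.49, SE 1.15, unadjusted p = 0.0603), and Krt17, a keratin of both the wound edge and the hair follicle, at 929, 1332 and 754 against 453, 1385 and 1713 FPKM (log2 change -0.07, SE 0.80, unadjusted p = 0.934). The list's median was 0.55 without PRP replicate 2, 0.45 with the muscle level as a covariate and 1.62 with a pseudocount of 0.1.

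Basal keratinocyte genes had a median of 0.12 over 10, of which 7 were higher, and cornified keratinocyte genes a median of 0.09 over 13, of which 9 were higher, and none of the 23 had an unadjusted p under 0.05. In the cornified list 1 gene was higher without overlap (5.79% of all tested features) and 1 was lower without overlap (5.55%). The higher one was Tgm3, a transglutaminase (0.5 ± 0.55), and the lower one Krt2, a keratin of the upper layers (-0.65 ± 0.39). The difference between these lists and the wound-edge list was not tested. Both medians turned negative when PRP replicate 2 was left out, to -0.01 and -0.20. Krt15, the most abundant basal gene, stood at 1857, 4501 and 2119 against 1430, 1402 and 1914 FPKM (log2 change 0.74, SE 0.85, unadjusted p = 0.408), and Krt10, a keratin of the differentiated layers, at 804, 1551 and 669.6 against 581, 928 and 1181 FPKM (log2 change 0.13, SE 1.11, unadjusted p = 0.91). Ivl (involucrin), an envelope protein, was at 37.9, 17.8 and 13.2 against 13.9, 97.4 and 82.5 FPKM (log2 change -1.19, SE 1.13, unadjusted p = 0.321), with saline replicates 2 and 3 above and saline replicate 1 within the PRP range. Sebocyte genes had a median of 0.03 over 13.

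Hair follicle genes were lower with PRP in all 30 tested members, with a median of -0.84, but the saline libraries spread on both sides of the PRP libraries. Krt71, a keratin of the inner root sheath, stood at 896, 527 and 245 FPKM with PRP and 154, 1710 and 1582 FPKM with saline (log2 change -0.61, SE 1.62, unadjusted p = 0.713). Tchh (trichohyalin), a structural protein of the same sheath, stood at 587, 314 and 134 against 74.4, 1825 and 1082 FPKM (log2 change -0.86, SE 1.82, unadjusted p = 0.649), and Krt31, a keratin of the hair shaft, at 458, 202 and 119 against 48.2, 1421 and 882 FPKM (log2 change -0.82, SE 2.01, unadjusted p = 0.692). In these 3 genes saline replicate 1 was the lowest of the 6 libraries and saline replicates 2 and 3 were the highest. Of the 30, only Msx1 had an unadjusted p under 0.05 (2.56% of all tested features toward lower values) or no overlap (5.55%), so both counts were near or below what all features gave. It stood at 2.37, 1.68 and 1.83 against 3.15, 3.76 and 2.45 FPKM (log2 change -0.47, SE 0.17, unadjusted p = 0.0216). The median of the list was -1.94 without saline replicate 1, -0.15 without saline replicate 2 and -0.45 without saline replicate 3. It was -1.32 without PRP replicate 1 and -0.40 without PRP replicate 3. With the epithelial level as a covariate it was -0.26, but that level is itself averaged in part from these genes. The summed FPKM of the list ran from 1354 to 4967 with PRP and from 1015 to 12678 with saline.

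Pigment genes were lower with PRP. All 10 melanocyte genes were tested and lower, with a median of -1.25. An unadjusted p under 0.05 was reached by 7 of the 10 (2.56% of all tested features toward lower values), and the same number did not overlap (5.55% of all tested). Tyr, the tyrosinase that starts melanin synthesis, stood at 2.87, 1.51 and 0.153 FPKM with PRP and 4.81, 15.96 and 6.24 FPKM with saline (log2 change -2.0, SE 0.51, unadjusted p = 0.00392). Dct and Tyrp1, the later enzymes of the pathway, stood at 12.8, 8.095 and 3.32 against 17.5, 66.8 and 28.9 FPKM (log2 change -2.04, SE 0.78, unadjusted p = 0.0287) and at 8.31, 5.104 and 1.64 against 11.9, 41.1 and 18.2 FPKM (log2 change -2.04, SE 0.67, unadjusted p = 0.0141). Pmel, the scaffold protein of pigment granules, stood at 5.53, 5.14 and 2.103 against 10.5, 38.7 and 11.1 FPKM (log2 change -1.82, SE 0.57, unadjusted p = 0.0111). For each of these genes saline replicate 2 was the highest library and PRP replicate 3 the lowest. Slc45a2, a transporter of pigment granules, was at 0.497, 0.469 and 0.165 against 1.01, 2.58 and 1.31 FPKM (log2 change -0.9, SE 0.23, unadjusted p = 0.00345), and Mlana and Oca2, also without overlap, had changes of -1.19 ± 0.44 and -0.95 ± 0.32. Mitf, the master regulator of melanocytes, was at 8.36, 7.67 and 7.703 against 16.2, 11.2 and 6.66 FPKM (log2 change -0.4, SE 0.28, unadjusted p = 0.196) and overlapped.

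The melanocyte median kept its sign when any single library was left out, ranging from -1.61 without saline replicate 1 to -0.88 without saline replicate 2, and it was -1.05 with the epithelial level as a covariate. Its level per library was 2.15, 1.78 and 1.19 with PRP and 2.53, 3.73 and 2.75 with saline. The hair follicle level, beside it, was 5.69, 5.05 and 4.13 with PRP and 3.75, 6.98 and 6.40 with saline. In saline replicate 1 the melanocyte level was above every PRP library and the hair follicle level below them all. Within the PRP group both levels fell from replicate 1 to 3, and saline replicates 2 and 3 were highest in both. Whether hair follicle content moved the pigment genes was not tested beyond the epithelial covariate.

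Skeletal muscle genes were lower with PRP in 17 of 19 tested members, with a median of -0.69, 5 with an unadjusted p under 0.05 (2.56% of all tested features toward lower values) and 4 without overlap (5.55%). Myh7, the slow myosin heavy chain, stood at 8.32, 1.88 and 1.62 FPKM with PRP and 49.7, 33.7 and 10.2 FPKM with saline (log2 change -2.71, SE 0.98, unadjusted p = 0.0228). Tnnt1, the slow troponin T, stood at 13.5, 6.69 and 7.72 against 60.6, 58.5 and 24.8 FPKM (log2 change -2.2, SE 0.84, unadjusted p = 0.0294), and Myh2, the myosin of fast oxidative fibres, at 23.95, 48.8 and 29.6 against 143, 303 and 56.9 FPKM (log2 change -2.02, SE 0.86, unadjusted p = 0.0446). None of these 3 overlapped. The slow troponin genes Tnni1 and Tnnc1 were the other members with an unadjusted p under 0.05, with changes of -1.46 ± 0.59 and -1.65 ± 0.66. Myl2 and Myl3, the slow light chains, which the list does not hold, stood at 5.02, 3.02 and 2.599 against 22.4, 58.9 and 8.58 FPKM (log2 change -2.42, SE 0.91, unadjusted p = 0.0266) and at 7.07, 5.35 and 2.38 against 28.4, 42.7 and 9.79 FPKM (log2 change -2.11, SE 0.84, unadjusted p = 0.0348). Myom3, a sarcomere protein also outside the list, stood at 2.74, 1.38 and 2.197 against 7.69, 33.99 and 3.45 FPKM (log2 change -1.86, SE 0.68, unadjusted p = 0.0235). Mb (myoglobin), the oxygen store of oxidative fibres, was at 302, 393 and 441 against 1440, 1930 and 558 FPKM (log2 change -1.63, SE 1.18, unadjusted p = 0.201), without overlap. Other fibre genes overlapped, among them Myh4, a fast myosin, at 762, 537 and 333 against 2188, 752 and 352 FPKM (log2 change -0.69, SE 1.07, unadjusted p = 0.535), and Tnni2, the fast troponin I, at 1029, 927 and 726 against 2519, 972 and 707 FPKM (log2 change -0.44, SE 1.03, unadjusted p = 0.68). In both, saline replicate 1 was far above the other 5 libraries.

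The muscle median was -0.17 without saline replicate 1, -1.32 without saline replicate 3 and 0.17 with the muscle level itself as a covariate. The summed FPKM of the 19 genes ran from 6123 to 8419 with PRP and from 5946 to 21868 with saline. Genes of muscle regeneration were lower with PRP in all 9 tested members of 14 listed, with a median of -1.11 that was -0.43 without saline replicate 2, and none had an unadjusted p under 0.05. Myh3, the embryonic myosin of new fibres, stood at 19.4, 5.24 and 11.4 against 37.9, 110.2 and 9.70 FPKM (log2 change -1.62, SE 0.76, unadjusted p = 0.0614), and Myog, a factor of muscle differentiation, at 6.24, 4.19 and 2.63 against 9.94, 31.8 and 2.86 FPKM (log2 change -1.11, SE 0.69, unadjusted p = 0.141). How far the muscle content of a sample moved other gene groups was tested only through the covariate.

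Several platelet genes were scarce in the diabetic ulcers, and whether any platelet transcripts came from the injected product was not tested. Of 16 platelet genes, 13 are in the table and 7 passed the filter. Ppbp, one of the most abundant platelet transcripts, was listed at 0 in 5 of the 6 diabetic libraries and at 0.583 FPKM in PRP replicate 2, and the defining receptor genes Gp1ba and Gp9 were at or under 0.137 FPKM in all 6. Pf4, the platelet factor 4 gene, which macrophages also express, stood at 36.01, 23.2 and 33.8 FPKM with PRP and 36.1, 4.31 and 12.4 FPKM with saline (log2 change 1.19, SE 0.58, unadjusted p = 0.0718). The median over the 7 was 0.29, from 0.16 without saline replicate 2 to 0.56 without saline replicate 1, and none had an unadjusted p under 0.05.

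Of 10 listed erythroid genes 4 were tested, of which 3 were higher and 1 lower with PRP, with a median of 0.88. The haemoglobin transcripts were among the higher ones. Hba-a2 stood at 42.1, 85.4 and 79.1 FPKM with PRP and 41.1, 17.3 and 9.89 FPKM with saline (log2 change 1.72, SE 0.47, unadjusted p = 0.00542), and Hbb-b1 at 222, 378 and 367 against 227, 85.7 and 68.6 FPKM (log2 change 1.5, SE 0.44, unadjusted p = 0.00798). These 2 were the tested members with an unadjusted p under 0.05 (3.98% of all tested features toward PRP). Only Hba-a2 had no overlap (5.79%), by a narrow margin between PRP replicate 1 and saline replicate 1. Whether blood in the samples moved other genes was not tested.

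The tissue's own genes for the growth factors that PRP carries did not differ beyond their spread. Of 24 tested ligand genes, 14 were higher and 10 lower with PRP, the median was 0.03, and none had an unadjusted p under 0.05 or groups without overlap. Tgfb1 stood at 10.4, 13.6 and 15.96 FPKM with PRP and 13.01, 9.504 and 6.04 FPKM with saline (log2 change 0.48, SE 0.32, unadjusted p = 0.173). Vegfa, the main growth factor of vessels, stood at 13.4, 16.5 and 11.5 against 16.02, 14.2 and 11.04 FPKM (log2 change 0.0, SE 0.23, unadjusted p = 0.99), and Pdgfb at 4.198, 4.68 and 7.501 against 8.07, 3.59 and 2.93 FPKM (log2 change 0.21, SE 0.38, unadjusted p = 0.606). Igf1 was at 6.86, 18.9 and 9.41 against 6.003, 11.5 and 4.42 FPKM (log2 change 0.59, SE 0.60, unadjusted p = 0.351). The most abundant ligand, Ccn2 (connective tissue growth factor), was at 19.8, 22.9 and 36.8 against 26.4, 30.3 and 38.4 FPKM (log2 change -0.28, SE 0.24, unadjusted p = 0.278).

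Among 22 tested receptor genes 12 were higher and 10 lower, with a median of 0.07, and 3 had both an unadjusted p under 0.05 (3.98% of all tested features) and no overlap (5.79%). Cxcr4, the receptor for the stromal chemokine Cxcl12, stood at 15.1, 21.97 and 19.2 FPKM with PRP and 9.48, 3.45 and 9.03 FPKM with saline (log2 change 1.33, SE 0.37, unadjusted p = 0.00613). Tgfbr1, the type I TGF-beta receptor, stood at 25.1, 28.8 and 28.1 against 20.7, 16.6 and 18.6 FPKM (log2 change 0.53, SE 0.22, unadjusted p = 0.0367), and Nrp2, a co-receptor for VEGF and semaphorins, at 28.3, 31.4 and 37.7 against 15.6, 24.2 and 22.3 FPKM (log2 change 0.64, SE 0.24, unadjusted p = 0.0251). The VEGF receptor Kdr (-0.07 ± 0.26) and the EGF receptor Egfr (-0.36 ± 0.29) overlapped. Of 17 genes that respond to TGF-beta, which include collagen and contractile genes of the lists above, 11 were higher and 6 lower with a median of 0.12, and none had an unadjusted p under 0.05.

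Immediate early genes respond within an hour or so to growth factors and to handling. Listed together with heat shock genes, they had a median of 0.08 over 21, and none of the 21 had an unadjusted p under 0.05. Of the 21, 1 was without overlap and higher with PRP, Fosl1 (5.79% of all tested features). Fos was at 55.5, 28.5 and 11.7 against 48.5, 6.68 and 6.01 FPKM (log2 change 1.0, SE 0.78, unadjusted p = 0.237) and Egr1 at 16.8, 14.7 and 8.09 against 25.2, 26.2 and 9.57 FPKM (log2 change -0.52, SE 0.43, unadjusted p = 0.25). The sources used here do not give the time between the injection of day 21 and sampling.

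Clotting and fibrinolysis genes had members on both sides. Of 13 tested, 2 higher genes (3.98% of all tested features) and 1 lower gene (2.56%) had an unadjusted p under 0.05. Without overlap were 1 higher gene (5.79%) and 1 lower gene (5.55%). Procr, given above, was the lower one in both counts. Serpine2, an inhibitor of thrombin and plasminogen activators, stood at 21.2, 23.8 and 27.8 against 15.5, 6.14 and 6.904 FPKM (log2 change 1.36, SE 0.57, unadjusted p = 0.0411) without overlap, and Plat, the tissue plasminogen activator, at 21.7, 35.1 and 48.8 against 25.8, 12.99 and 16.7 FPKM (log2 change 0.87, SE 0.33, unadjusted p = 0.0288). The median over 13 tested genes was 0.31, or 0.16 without saline replicate 2 and 0.53 without saline replicate 1.

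Vessel genes did not differ beyond their spread. Of 14 endothelial genes 7 were higher and 7 lower, with a median of 0.03 that changed sign with the library left out, and none had an unadjusted p under 0.05. Pecam1, the junction protein CD31, was at 22.3, 26.3 and 41.8 FPKM with PRP and 51.3, 26.6 and 19.95 FPKM with saline (log2 change -0.05, SE 0.37, unadjusted p = 0.895). In nerve, Mbp and Prx, myelin genes of Schwann cells, were higher without overlap, at 8.56, 5.24 and 8.73 against 4.56, 2.23 and 4.17 FPKM (log2 change 0.88, SE 0.26, unadjusted p = 0.0085) and 2.02, 1.29 and 1.76 against 0.935, 0.815 and 0.788 FPKM (log2 change 0.53, SE 0.14, unadjusted p = 0.00508). Ngfr, the low-affinity nerve growth factor receptor, was lower without overlap, at 1.07, 0.723 and 0.671 against 1.17, 2.66 and 1.14 FPKM (log2 change -0.5, SE 0.24, unadjusted p = 0.0677). The nerve list as a whole had a median of 0.11 over 11. Without overlap were 2 higher genes (5.79% of all tested features) and 1 lower gene (5.55%). Adipocyte genes were lower in 11 of 13 with a median of -0.41 and none with an unadjusted p under 0.05, and mast cell genes had a median of -0.10 over 9.

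Proliferation genes were lower with PRP in 18 of 24 tested, beside 9205 of 15600 for all tested features. Their median was -0.17, and none had an unadjusted p under 0.05 or groups without overlap. Mki67, a marker of cycling cells, stood at 18.2, 14.2 and 9.49 against 6.07, 35.7 and 20.5 FPKM (log2 change -0.29, SE 0.54, unadjusted p = 0.607), with the PRP libraries between saline replicate 1 and the other saline libraries. The sign turned to 0.13 without saline replicate 2. In the senescence list of 12 genes, 10 were tested. An unadjusted p under 0.05 was reached by 1 (3.98% of all tested features toward PRP), and 1 did not overlap (5.79%). In both counts this was the cell cycle inhibitor gene Cdkn2a, at 3.76, 3.99 and 6.12 against 1.41, 0.919 and 3.65 FPKM (log2 change 0.99, SE 0.32, unadjusted p = 0.013). Cdkn1a stood at 73.8, 43.5 and 36.03 against 57.8, 165 and 70.5 FPKM (log2 change -0.84, SE 0.44, unadjusted p = 0.0912).

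Nuclear genes of oxidative phosphorylation were slightly lower with PRP in 25 of 27, with a median of -0.29. In 9 of the 27 the groups did not overlap (5.55% of all tested features toward lower values), and 1 had an unadjusted p under 0.05 (2.56%). That gene was Atp5f1b, the beta subunit of ATP synthase, at 214, 191 and 150 against 244, 295 and 245 FPKM (log2 change -0.51, SE 0.21, unadjusted p = 0.038). Atp5f1a stood at 190.2, 181 and 161 against 213, 227 and 228 FPKM (log2 change -0.33, SE 0.20, unadjusted p = 0.14) and Sdha, of succinate dehydrogenase, at 45.04, 43.5 and 40.2 against 60.9, 50.5 and 52.6 FPKM (log2 change -0.34, SE 0.15, unadjusted p = 0.0545). All 13 mitochondrially encoded genes were lower, with a median of -0.31 and 1 without overlap, and 25 of 26 cytosolic ribosomal protein genes were lower, with a median of -0.14. With the muscle level as a covariate the median of the nuclear genes was -0.17, and without saline replicate 3 that of the ribosomal genes was 0.00. With libraries rescaled by size factors the ribosomal median was -0.08.

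Among insulin and glucose genes 14 of 17 were lower with PRP, beside 9205 of 15600 for all tested features, with a median of -0.15. An unadjusted p under 0.05 was reached by 2 (2.56% of all tested features toward lower values), and 3 did not overlap (5.55%). Foxo1, a transcription factor that insulin signalling restrains, stood at 16.3, 14.5 and 11.5 against 16.9, 27.7 and 20.2 FPKM (log2 change -0.57, SE 0.21, unadjusted p = 0.0241), and Pik3r1, the regulatory subunit of PI3-kinase, at 29.2, 26.8 and 27.5 against 34.1, 33.3 and 34.99 FPKM (log2 change -0.29, SE 0.12, unadjusted p = 0.0395). Both had no overlap, nor did Ppargc1a, a coactivator of mitochondrial genes, with a change of -0.49 ± 0.22. The insulin receptor gene Insr was at 4.79, 4.84 and 4.04 against 6.93, 5.64 and 3.44 FPKM (log2 change -0.15, SE 0.22, unadjusted p = 0.505), and Slc2a4, the insulin-responsive glucose transporter of muscle and fat, at 13.7, 13.4 and 13.3 against 53.3, 20.5 and 13.6 FPKM (log2 change -0.83, SE 0.53, unadjusted p = 0.153). Glycolysis and hypoxia genes had a median of -0.01 over 22. An unadjusted p under 0.05 was reached by 1 (3.98% of all tested features toward PRP), and 2 did not overlap (5.79%), both higher. Hexokinase 1 (Hk1), in both counts, stood at 12.9, 14.1 and 13.5 against 10.9, 9.33 and 9.31 FPKM (log2 change 0.42, SE 0.14, unadjusted p = 0.0155). The glucose transporter gene Slc2a1 was the other without overlap, with a change of 0.67 ± 0.37.

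Of 23 tested Wnt and hedgehog genes, with a median of -0.18, 3 had an unadjusted p under 0.05 (3.98% of all tested features toward PRP), all higher. Without overlap were 1 higher gene (5.79%) and 2 lower genes (5.55%). The higher gene without overlap, Wnt16, stood at 11.2, 16.9 and 28.9 against 10.9, 1.71 and 8.34 FPKM (log2 change 1.48, SE 0.59, unadjusted p = 0.0353). It encodes a Wnt ligand. The ligand genes Wnt10b and Wnt11 were lower without overlap, at 0.806, 0.483 and 0.433 against 1.17, 1.75 and 0.895 FPKM (log2 change -0.52, SE 0.26, unadjusted p = 0.0799) and at 3.96, 3.22 and 1.07 against 4.13, 4.68 and 4.12 FPKM (log2 change -0.59, SE 0.39, unadjusted p = 0.164). Type I interferon, oxidative stress, circadian clock, fatty acid, cholesterol and unfolded protein response genes had medians from -0.05 to 0.10.

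**Figure D5:**
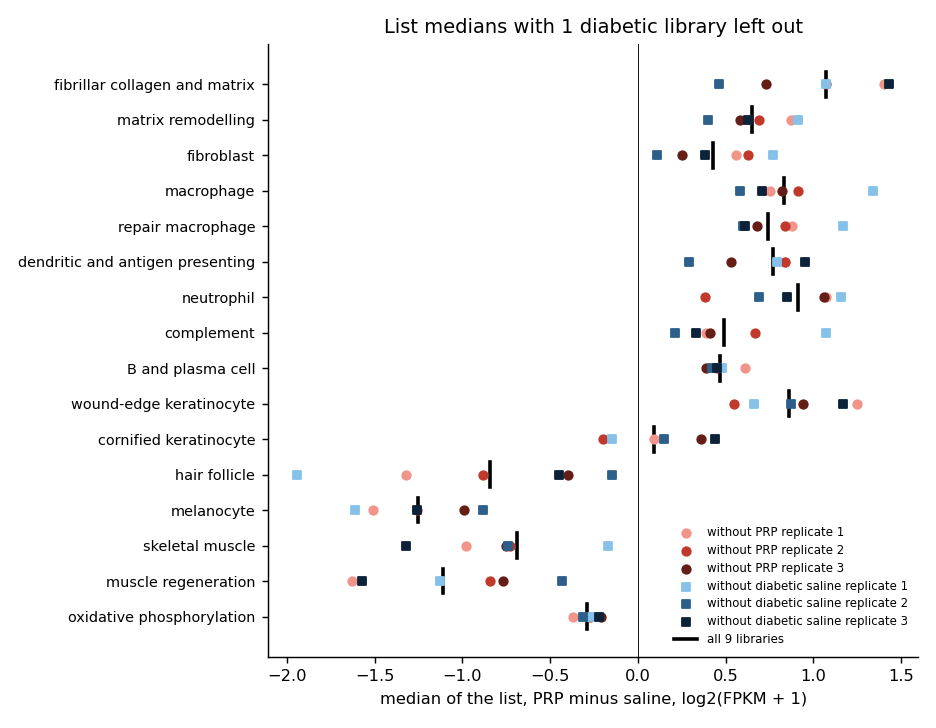
Median change of 16 gene lists (x axis, PRP minus saline, log2(FPKM + 1)) with all 9 libraries, black bar, and with 1 diabetic library left out, circles for PRP and squares for saline libraries. Without saline replicate 2 the medians of matrix (0.46), fibroblast (0.11), dendritic (0.29) and hair follicle (-0.15) genes lie nearest to 0, whereas the melanocyte median stays between -1.61 and -0.88.

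The non-diabetic ulcers give a reference level for these values. The comparisons of each diabetic group with them share libraries with each other and with the comparison of PRP and saline, so their values are set side by side with no test of their likeness. For fibrillar collagen and matrix genes the median difference from non-diabetic ulcers was -1.55 in diabetic saline ulcers and -0.53 in PRP ulcers. The same pair of values was -1.73 and -0.91 for macrophage genes, -2.02 and -1.0 for dendritic genes and -1.42 and -0.48 for remodelling genes. For these 4 lists the PRP ulcers stood nearer to the non-diabetic level than the saline ulcers did. For melanocyte genes the pair was 1.63 and 0.50, for skeletal muscle genes 2.23 and 1.53 and for hair follicle genes 3.08 and 2.22. For fibroblast genes it was -1.53 and -1.15, for endothelial genes -0.92 and -0.89, and for wound-edge keratinocyte genes -0.79 and 1.18, so that in the last of these lists the PRP ulcers stood above the non-diabetic ones. Between PRP and non-diabetic ulcers limma called 1 feature, the small nucleolar RNA AC105648.6. Non-diabetic replicate 2 was the lowest of its group for several of these genes, with Col12a1 at 404, 64.6 and 437 FPKM, Tnn at 174, 32.5 and 231 FPKM and Fcgr2a at 165, 95.9 and 200.1 FPKM in replicates 1 to 3.

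Members of near-identical gene families, among them the hair keratins, Sprr and Lce genes, rat MHC genes, beta-defensins, haemoglobins and immunoglobulin genes, can share reads, and the sources used here do not say how the authors' counting divided such reads. The values of these genes are uncertain to that extent.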

How the data were processed

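Per the labels, total RNA of ulcer skin was extracted with a column kit and made into stranded libraries, and cutadapt, FastQC, HISAT2, StringTie and the mouse build GRCm39 appear in the submitters' processing notes with no version. The identifiers in the table are of rat, and the rat build and annotation are not given in the sources used here. The authors deposited FPKM values per gene for 9 libraries, and these were used for every result. A second deposited table holds read counts of a subset of lncRNA genes, used only for relative depth over 81 genes with at least 20 counts in every library. Its group mean signal columns and the authors' log2 fold changes and p-values, which compare diabetic with non-diabetic ulcers, were not used.

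Of 30560 identifiers, rows sharing a gene name were added up to give 28370 features, and 15600 with at least 0.5 FPKM in at least 3 of 9 libraries were tested. Because most genes have FPKM without counts, no count model was used. The group difference was fitted to log2(FPKM + 1) in limma 3.58.1 (R 4.3.3) with a trend of variance on level, over all 9 libraries, with Benjamini-Hochberg adjustment over all 15600 features. The method was tested on simulated data first. The tables were handled in Python 3.11.15 with pandas 2.3.3. The precision is limited by 3 libraries per group, and p-values measure the spread between these libraries.

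Gene lists, 50 of them with 851 genes, of which 782 were in the table and 739 tested, were described by counts and medians. Keratinocyte and hair follicle genes were averaged as log2(FPKM + 1) to give the epithelial level of each library, and skeletal muscle genes to give its muscle level. The members and lists were chosen with earlier results of these data known. Single genes were named by rule: among genes without overlap whose higher group averaged 1 FPKM or more, leaving out predicted, clone-named and antisense features, the 10 with the smallest unadjusted p in each direction and the 10 with the largest change among those with an unadjusted p under 0.05, and from each list the 3 most abundant, the 3 with the smallest p and those without overlap. Not every gene that this rule names from the lists is given. The clock genes Per3 and Cry1, without overlap, are among those left out, so the list genes given are a selection. Other genes given with values, among them Rn7sl1, Eln, Tnc, Plod2, Acta2, Mmp13, Csf1r, Cd163, Krt6a, Mitf, Myh4, Tgfb1, Igf1, Fos and Mki67, were chosen after their values had been seen. Alternatives were a pseudocount of 0.1, no filter, size factors, features by identifier, the 6 diabetic libraries alone, a replicate block and array weights. The epithelial and the muscle level were each a covariate in a separate fit, and each library was left out in turn.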

Additional observations from a re-analysis of the deposited data

How the results depend on the processing

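The number of features with an adjusted p under 0.05 in limma between PRP and saline was 0 under 16 of 18 alternatives. It was 1 with size factors (AC105648.6, adjusted p = 0.0494 in limma) and 1 with no filter (AC096311.2, adjusted p = 0.00434 in limma). The number with an unadjusted p under 0.05, 1021 with all libraries, was 523 with the muscle level as a covariate and 1510 with no filter, and it ran from 378 without PRP replicate 3 to 2131 without saline replicate 1. The number of features without overlap, 1770, ran from 2302 to 5441 when 1 diabetic library was left out, where 3 libraries meet 2, so that fewer samples alone raise it. The labels do not say that equal replicate numbers pair libraries. Deviations from the group means correlated at -0.151, 0.164 and -0.069 between same-numbered PRP and saline libraries, which does not settle whether they share a day or litter. With the number as a replicate block 0 features passed and 1138 had an unadjusted p under 0.05. The change of each of the 39 genes named for p or size kept its sign under all 18 alternatives. These genes were chosen for groups without overlap. Leaving a library out or changing the pseudocount, filter or block could therefore not turn the sign, and the count is no test of these genes. List medians were computed under 17 of the alternatives, as the one with features by identifier was not run for lists. Of 49 medians, 29 kept their sign under those 17. In the fits with the epithelial level and with the muscle level as a covariate, run separately, 41 of the 49 kept their sign in each. Depth in reads is unknown for most genes, so no limit of detection could be set.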

Other observations

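Of the small nucleolar RNAs, AC105648.6 had the smallest p of all tested features. This feature of 70 bases on chromosome 8 stood at 9.95, 7.92 and 6.81 FPKM in PRP replicates 1 to 3, 1.19, 0.997 and 1.92 FPKM in diabetic saline replicates 1 to 3 and 0.415, 0.582 and 0.703 FPKM in non-diabetic replicates 1 to 3. Its change between PRP and saline was 1.97 with an SE of 0.20, and its adjusted p in limma was 0.0805, from 0.0494 to 0.576 over the 18 alternatives. Every PRP library was above each of the other 6 libraries. A second small nucleolar RNA, AC096311.2, of 100 bases on chromosome 1, stood at 0.251, 0.238 and 0.238 FPKM in PRP replicates 1 to 3 and was listed at 0 in the other 6 libraries, and it lay under the filter on low values. No function is annotated for either in the table.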
